A study of Mus musculus with 39 samples.

Results

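Complement cascade genes were followed by name in RNA from AB1-HA tumours: C1ra, C1rb, C1s1, C2, Cfb, C3, C4b, Serping1 and C3ar1, which are 9 of the 39676 genes in the deposited table. They were picked out by gene symbol, with earlier results of these data known, and all 9 were measured in each of 39 tumours and passed the filter on low counts in every comparison. AB1-HA cells are derived from a murine mesothelioma and express influenza haemagglutinin as a marker antigen, and these tumours grew under the skin of BALB/c mice. The study asked what tretinoin (all-trans retinoic acid, the active form of vitamin A) does to such tumours before and together with immune checkpoint therapy (ICT). Here ICT was anti-CTLA-4 and anti-PD-L1 antibody at 100 µg each, started on day 7. By the methods anti-CTLA-4 was given once and anti-PD-L1 repeatedly on alternate days. PBS was given to 10 mice, tretinoin alone to 9, ICT alone to 10 and tretinoin+ICT to 10, 1 tumour each. By the labels tretinoin was given daily on 5 days from day 4 at 5 mg/kg. The study's legends for the RNA sequencing experiments with ICT also give 5 mg/kg, one of them with 4 doses in all. Its legend for tretinoin alone gives 10 mg/kg, and the PBS for tretinoin controls held DMSO according to its methods. Tumours were resected on day 9. For the response labels, mice carried a tumour on either flank, and the tumour left in place classed the 10 tretinoin+ICT mice as 6 responders (cured) and 4 non-responders (outgrowth). Response is known only for this group and was read from a different tumour than the one sequenced.

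The complement system is a chain of plasma proteases that tags cells and debris for uptake and releases inflammatory fragments. In the classical branch C1q carries the proteases C1r and C1s, which cut C4 and C2. In the alternative branch factor B takes the place of C2, and both branches meet at C3, whose fragment C3a signals through the receptor C3aR. Most plasma complement comes from the liver, but fibroblasts, macrophages, endothelial cells and many tumour cells make components locally, and interferon-gamma and acute phase cytokines are known inducers of several of these genes. In whole tumours, more cells of a type and more RNA per cell cannot be told apart.

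The 9 genes lie in a few clusters on the GRCm38 genome (GENCODE M21). C1ra (chr6:124512405-124523443), C1s1 (chr6:124530345-124542359) and C1rb (chr6:124570294-124581171) are neighbours on chromosome 6, and C3ar1 (chr6:122847138-122856161) lies elsewhere on that chromosome. C4b (chr17:34728380-34743882), Cfb (chr17:34856374-34862518) and C2 (chr17:34862604-34898265) sit together in the major histocompatibility region of chromosome 17, where C3 (chr17:57203970-57228136) lies apart from them. Serping1 (chr2:84765387-84775444) is on chromosome 2. Some of these genes share sequence, which matters for short reads. Of the 100-base windows along its longest transcript, 35.9% of C1ra also matched another gene (34.5% matched C1rb), as did 42.7% of C1rb, 16.5% of C4b (its paralogue C4a) and 7.9% of C1s1 (C1s2). The annotated read-through gene Gm20547, which had 0 counts in all 39 tumours, covers 79.5% of the exon bases of Cfb and 42.8% of those of C2 on the same strand, so the counts of these genes come from the rest of their exons if reads that overlap more than 1 gene were dropped. On the opposite strand, Gm16567, also with 0 counts, covers 18.4% of the exon bases of C1s1, so reads there may be missing too if strand was ignored. C3, Serping1 and C3ar1 shared no window.

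RefSeq promoter windows (GRCm38.p6, 250 bases before to 50 after a transcript start, read in the direction of the gene) were given for 5 of the 9 genes, and C1ra, C1rb and C3 are shown because the first pair moved together most closely and C3 moved most. Capitals mark matches, on either strand, to the letters TTCNNNGAA (the core that STAT factors bind after interferon-gamma) or TTGCNNAA (a C/EBP core). C1ra (chr6:124512371-124512670, plus strand), C1rb (chr6:124570180-124570479, plus strand) and C3 (chr17:57228087-57228386, minus strand) read as follows.
C1ra: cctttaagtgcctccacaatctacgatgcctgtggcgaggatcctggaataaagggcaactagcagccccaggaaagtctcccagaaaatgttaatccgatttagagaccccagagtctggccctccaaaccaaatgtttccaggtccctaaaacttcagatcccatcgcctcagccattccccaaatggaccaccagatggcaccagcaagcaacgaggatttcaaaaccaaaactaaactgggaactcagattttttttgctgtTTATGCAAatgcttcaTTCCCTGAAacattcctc
C1rb: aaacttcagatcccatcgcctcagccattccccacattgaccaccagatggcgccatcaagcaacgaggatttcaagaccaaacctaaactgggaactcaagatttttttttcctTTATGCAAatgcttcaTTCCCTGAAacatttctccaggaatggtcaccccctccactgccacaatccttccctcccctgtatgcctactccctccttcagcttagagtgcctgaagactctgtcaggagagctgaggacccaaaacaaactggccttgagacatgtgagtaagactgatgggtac
C3: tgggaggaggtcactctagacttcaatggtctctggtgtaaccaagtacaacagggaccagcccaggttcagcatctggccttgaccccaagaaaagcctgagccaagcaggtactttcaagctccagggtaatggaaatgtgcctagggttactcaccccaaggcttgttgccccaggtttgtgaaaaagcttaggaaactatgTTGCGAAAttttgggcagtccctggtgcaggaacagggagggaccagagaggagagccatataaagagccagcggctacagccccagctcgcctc
Laid over each other with an offset of 151 bases and no gap, the C1ra and C1rb windows were identical at 135 of 149 bases (90.6%), and both capitalised elements lay in that shared stretch, the C/EBP core 16 bases before the STAT core. They start 17 and 33 bases after the RefSeq start of C1ra but 135 and 119 bases before that of C1rb. By the GENCODE M21 coordinates above both genes start before these elements, so this contrast depends on the annotation. C3 held a C/EBP core 45 bases before its start, no STAT core, and AGGTCA, the letters of a retinoid receptor half-site, 243 bases before its start. Of 32851 promoter windows of this length, 8.3% held the STAT letters, 10.8% the C/EBP letters and 16.3% AGGTCA. The C1s1 window at chr6:124542310-124542609, minus strand held a C/EBP core, its other RefSeq window at chr6:124542272-124542571, minus strand held none of these letters, and the C3ar1 window (chr6:122856108-122856407, minus strand) held an NF-kB core found in 1.63% of windows. None of the 6 windows of these 5 genes held the interferon regulatory factor element, which was present in 3.44%. A match is a string of letters, and nothing was measured at these positions.

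Counts per tumour added up to between 14033046 and 37951183 (median 18548168). Values below are in CPM, counts scaled to the same library size in every tumour after TMM normalization, and those set between genes are divided by exon length. In PBS tumours the median level per length was highest for C1s1 (102 CPM per kilobase), then C3 (76.1), C1ra (60.3), Serping1 (46.7), C3ar1 (42.9), C4b (34.5) and C1rb (33.8), and each of these overlapped its neighbours in range. C2 (3.54) and Cfb (3.02) lay about an order of magnitude lower, overlapped each other, and did not overlap the rest. Over only the exon bases that Gm20547 leaves free, the same medians were 6.18 for C2 and 14.7 for Cfb. Their order, and how far they lie below the other genes, thus depend on how such reads were counted. In tretinoin+ICT tumours C3 led with 365 CPM per kilobase and C1s1 followed with 291, again with overlapping ranges.

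**Figure D1:**
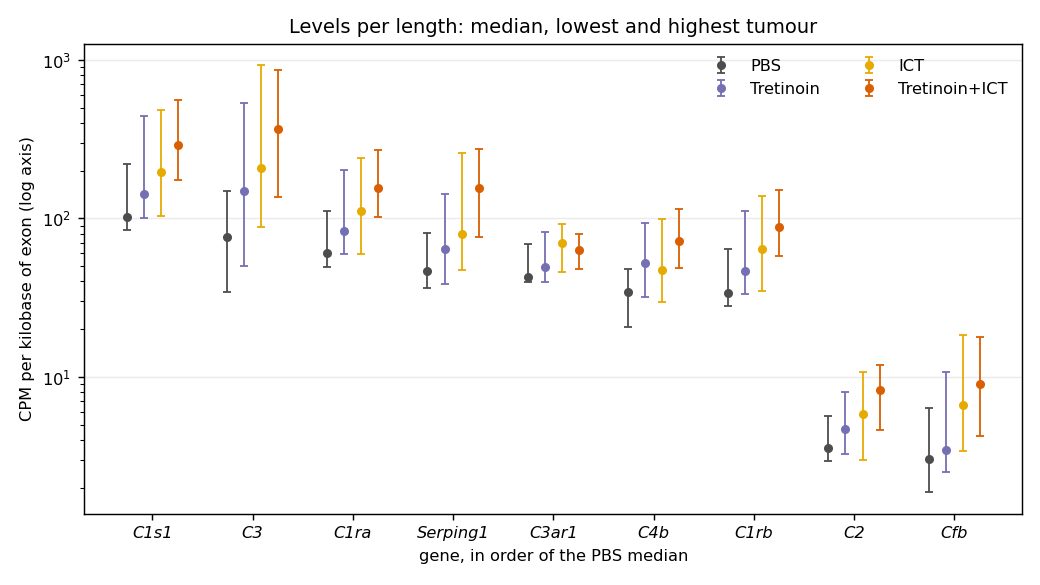
Level per length of each complement gene (y axis, CPM per kilobase of exon, log scale) in the 4 treatment groups. Points are medians and bars reach from the lowest to the highest tumour. Over all exon bases, C2 and Cfb stand below the other 7 genes in every group, a distance that depends on how reads overlapping Gm20547 were counted. C3 moves from the second place in PBS (76.1) to the first in tretinoin+ICT (365).

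Single tumours carried much of the spread, and they did so for the whole set. PBS tumour 14, tretinoin tumour 33 and ICT tumour 63 (numbers from the labels) were each the highest of their group for 9 of 9 genes, and ICT tumour 82 was among the highest pair of its group for 8 of 9. These 4 tumours had been noted in earlier results of these data for high immune marker levels. The number series of the labels, which is their first digit, splits each treatment into 2 sets of tumours, and since no series holds 2 treatments, series and treatment cannot be told apart.

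Classical pathway proteases were higher in every treatment than in PBS. C1ra, which encodes the protease that activates C1s, ranged from 146 to 333 CPM (median 179.8) in PBS tumours and from 178 to 599 CPM (median 248) in tretinoin tumours. With ICT alone it ranged from 178 to 719.6 CPM (median 329.7), and with tretinoin+ICT from 305 to 804 CPM (median 460.4). Medians rose in steps from PBS through tretinoin and ICT to the combination, while the ranges of neighbouring groups overlapped. Against PBS the log2 fold change of C1ra was 0.73 (SE 0.23, adjusted p = 0.0319) with tretinoin, 0.94 (SE 0.22, adjusted p = 0.00676) with ICT and 1.45 (SE 0.18, adjusted p = 5.02e-06) with tretinoin+ICT, the last a 2.73-fold difference. C1rb, its mouse paralogue, ranged from 67.5 to 156 CPM (median 82.03) in PBS tumours and from 81.4 to 269 CPM (median 113) in tretinoin tumours. In ICT tumours the range was 84.8 to 335 CPM (median 156), and with tretinoin+ICT from 141 to 365 CPM (median 215). The C1rb log2 fold changes were 0.67 (SE 0.23, adjusted p = 0.0464), 0.94 (SE 0.22, adjusted p = 0.0068) and 1.44 (SE 0.19, adjusted p = 6.46e-06) in the same order. Since the paralogues share much of their sequence, how far each value is its own is uncertain.

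C1s1, the protease that cuts C4 and C2, ranged from 264 to 685 CPM (median 318) in PBS tumours and from 316 to 1375 CPM (median 447) in tretinoin tumours. The ICT group ran from 325 to 1502 CPM (median 617), and with tretinoin+ICT from 549 to 1754 CPM (median 910.4). Of the 10 tretinoin+ICT tumours 8 exceeded every PBS tumour. The log2 fold change was 0.88 (SE 0.28, adjusted p = 0.0336) for tretinoin, 1.04 (SE 0.25, adjusted p = 0.00766) for ICT and 1.60 (SE 0.21, adjusted p = 7.77e-06) for the combination, which was 3.02-fold.

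Few counts fell on the convertase proteases, and reads that overlap Gm20547 may be missing from them, but both genes moved as well. C2, which joins C4 in the classical C3 convertase, ranged from 11.5 to 21.8 CPM (median 13.7) in PBS tumours and from 12.6 to 31.1 CPM (median 18.1) in tretinoin tumours. With ICT alone it ranged from 11.6 to 41.7 CPM (median 22.6), and with tretinoin+ICT from 17.8 to 46.1 CPM (median 32.2). The median of C2 was higher from group to group in this order. Cfb, factor B of the alternative C3 convertase, ranged from 5.27 to 17.8 CPM (median 8.53) in PBS tumours and from 7.1 to 30.2 CPM (median 9.76) in tretinoin tumours. In ICT tumours the range was 9.59 to 51.6 CPM (median 18.7), and with tretinoin+ICT from 11.98 to 50.4 CPM (median 25.3). Treated and PBS ranges overlapped for both, and with tretinoin+ICT 9 of 10 tumours exceeded every PBS tumour for either gene. With tretinoin the C2 log2 fold change was 0.49 (SE 0.17, adjusted p = 0.0434), whereas that of Cfb, 0.52 (SE 0.27, adjusted p = 0.173), did not pass. ICT raised C2 by 0.69 (SE 0.19, adjusted p = 0.0159) and Cfb by 1.17 (SE 0.28, adjusted p = 0.0077) on the log2 scale. The combination raised C2 by 1.16 (SE 0.16, adjusted p = 1.04e-05) and Cfb by 1.54 (SE 0.24, adjusted p = 3.09e-05).

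C3 had the largest difference of the 9 genes in each comparison with PBS. C3, the central component that all branches activate, ranged from 177 to 769 CPM (median 391) in PBS tumours and from 258 to 2747 CPM (median 764) in tretinoin tumours. The ICT group ran from 454 to 4747 CPM (median 1067), and with tretinoin+ICT from 698 to 4440 CPM (median 1876). The highest single value of C3 was in ICT tumour 63, and 9 of 10 tretinoin+ICT tumours exceeded every PBS tumour. ICT raised C3 3.73-fold, a log2 fold change of 1.90 (SE 0.40, adjusted p = 0.00462), and tretinoin+ICT raised it 5.68-fold, or 2.51 (SE 0.35, adjusted p = 1.57e-05). With tretinoin alone the value was 1.12 (SE 0.40, adjusted p = 0.0529), just outside the threshold, and without tumours 14 and 33 it was 0.81 (adjusted p = 0.0652). C4b, the classical and lectin pathway counterpart of C3, ranged from 117 to 272 CPM (median 197) in PBS tumours and from 182 to 534 CPM (median 296) in tretinoin tumours. With ICT alone it ranged from 168 to 564 CPM (median 269), and with tretinoin+ICT from 277 to 648 CPM (median 409.8). C4b was the only one of the 9 whose tretinoin+ICT and PBS tumours did not overlap at all. The C4b log2 fold changes against PBS were 0.61 (SE 0.19, adjusted p = 0.0305), 0.65 (SE 0.20, adjusted p = 0.0289) and 1.15 (SE 0.18, adjusted p = 4.76e-05) for tretinoin, ICT and both, and the value for ICT was 0.45 (adjusted p = 0.0735) without tumours 14, 63 and 82.

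Serping1 and C3ar1 differed in size of change. Serping1, which encodes C1 inhibitor, the brake on C1r and C1s, ranged from 83.9 to 187 CPM (median 109) in PBS tumours and from 89.9 to 331 CPM (median 149.6) in tretinoin tumours. In ICT tumours the range was 109.5 to 601 CPM (median 186), and with tretinoin+ICT from 178 to 633 CPM (median 359.7). Its log2 fold change was 0.66 (SE 0.23, adjusted p = 0.0488) with tretinoin, 1.03 (SE 0.26, adjusted p = 0.0111) with ICT and 1.64 (SE 0.22, adjusted p = 1.01e-05) with both, so the inhibitor rose beside the proteases that it blocks. C3ar1, the C3a receptor, which is found mainly on myeloid cells, ranged from 169.8 to 298 CPM (median 185) in PBS tumours and from 171 to 352 CPM (median 211) in tretinoin tumours. The ICT group ran from 197 to 394 CPM (median 299), and with tretinoin+ICT from 207 to 345 CPM (median 272). The receptor had the smallest log2 fold changes of the 9 genes against PBS, 0.19 (SE 0.12, adjusted p = 0.286) with tretinoin, 0.57 (SE 0.12, adjusted p = 0.00405) with ICT and 0.47 (SE 0.09, adjusted p = 0.000332) with both, and was the only one whose median was lower with tretinoin+ICT than with ICT.

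**Figure D2:**
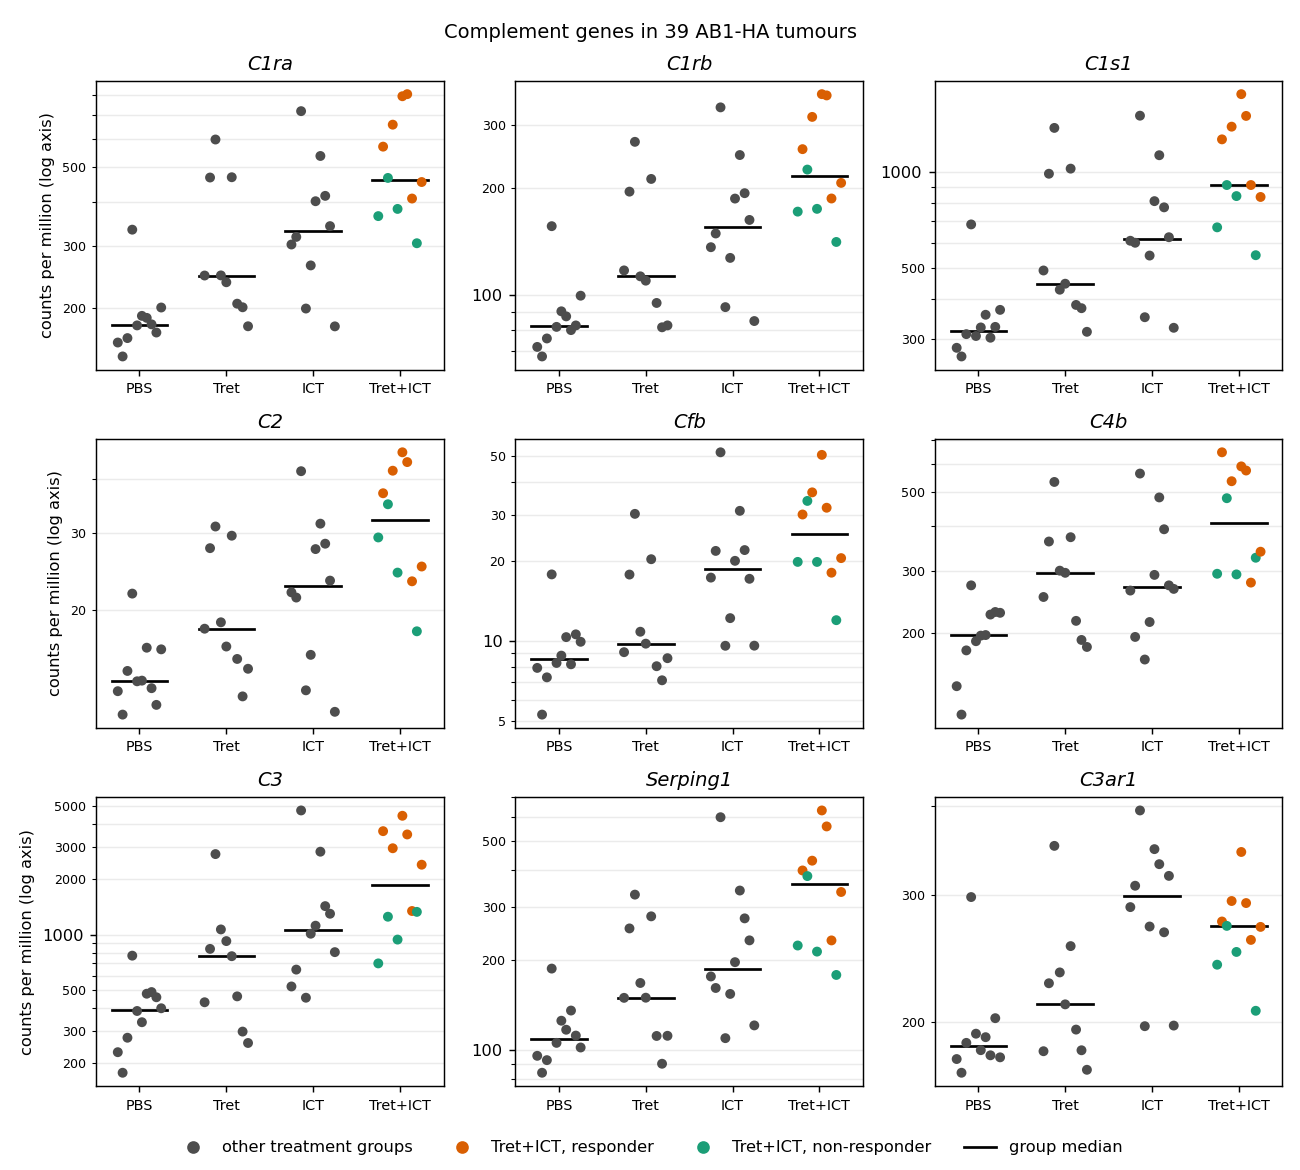
CPM of the 9 complement genes (y axes, log scale) in each of 39 tumours by treatment (x axes), with a line at the group median. Tretinoin+ICT tumours are coloured by response. The median is highest with tretinoin+ICT for 8 genes and with ICT alone for C3ar1, and 1 tumour each of the PBS, tretinoin and ICT groups tops its group in all 9 panels.

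Counted together, tretinoin+ICT against PBS gave the clearest difference. All 9 genes passed an adjusted p of 0.05 in the higher direction, as 25.7% of all tested genes did, and 8 (without C3ar1) also reached a log2 fold change of 1, as 5.45% did. The median log2 fold change was 1.45 for the 9 genes and -0.01 for all genes. C4b alone (1 of 9) had no overlap between the groups, where 3.69% of genes had none in this direction. Leaving out PBS tumour 14, the highest control, all 9 genes were free of overlap, against 8.31% of genes. Tumour 14 was the highest PBS tumour for all 9 genes, so leaving it out lowers their PBS maximum by construction. Genes for which another PBS tumour was highest do not gain in this way, so the share of all genes is not a like comparison. The count of 8 was the same when any single tumour was left out and in every other setting except that without a fold change minimum, which gave 9.

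ICT against PBS also raised all 9 genes past the adjusted p, where 14.1% of tested genes rose, and 4 of them (C1s1, Cfb, C3 and Serping1) reached a log2 fold change of 1, where 2.28% did. The median was 0.94 for the 9 genes and -0.02 for all genes. The 4 larger changes rested on few tumours. Only C3 was left without tumour 63, 2 genes were left without tumour 82, and 1 was left without tumours 14, 63 and 82 together, although 8 of 9 still passed the adjusted p. Of the 9 genes, 6 reached a log2 fold change of 1 without any 1 of PBS tumour 14 and ICT tumours 64 and 85.

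Tretinoin against PBS raised 6 of 9 genes (C1ra, C1rb, C1s1, C2, C4b and Serping1) past the adjusted p, where 11.5% of tested genes rose, and none of the 9 reached a log2 fold change of 1 as well, where 1.49% did. By edgeR 7 of 9 had an unadjusted p below 0.05, as 35.3% of all genes had in either direction. DESeq2 passed 7 (of all genes 11.2% higher) and called 1, which was C3 (1.86%). Adjusted p values of the 6 lay between 0.0305 and 0.0488, so this count was sensitive to single tumours and to the number of genes tested. Leaving out 1 tumour at a time gave 0 to 7 genes past the adjusted p. The count was 7 without PBS tumour 14 or tretinoin tumour 31, 72, 74 or 75, and 4 and 5 without tretinoin tumours 34 and 35. Leaving out any 1 of the 9 PBS tumours other than tumour 14 left 0 to 3 genes, leaving out tretinoin tumour 32, 33 or 71 left 0, and no filter on low counts left 0. Without both tumours 14 and 33 the count was 6, where 1691 of all 14391 genes tested rose. The 9 log2 fold changes were all above 0, with a median of 0.66 against 0.01 for all genes.

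Adding ICT to tretinoin raised 6 of 9 genes past the adjusted p (C1ra, C1rb, C2, Cfb, C3 and Serping1), where 12.3% of tested genes rose, and 2, Cfb and C3, reached a log2 fold change of 1, where 1.87% did. C3 was 2.62-fold higher in tretinoin+ICT than in tretinoin tumours (1.39, SE 0.45, adjusted p = 0.0364 on the log2 scale) and Cfb 2.02-fold (1.01, SE 0.30, adjusted p = 0.0234). Without tretinoin tumour 33 all 9 genes passed and 3 were called, and C3 stood at 1.85. Of all 14465 genes tested in that setting, 2367 rose past the adjusted p and 400 were called higher. Tumour 33 was the highest tretinoin tumour for all 9 genes, so leaving it out lowers the tretinoin group for them by construction. Without any 1 of tretinoin tumours 31, 35, 72, 74 and 75 or of tretinoin+ICT tumours 22, 24, 41 and 42, 2 or 3 genes passed and none was called, and 4 or 5 passed and 1 was called without tretinoin tumour 34 or tretinoin+ICT tumour 23.

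Adding tretinoin to ICT gave 0 of 9 genes past the adjusted p by edgeR, and 0 by DESeq2, where 1.57% of tested genes rose and 0.366% were called. At an unadjusted p below 0.05 edgeR gave 5 of 9, where 18.1% of all genes were below it in either direction, and DESeq2 6, where 18.7% were. The 8 genes other than C3ar1 had higher means with tretinoin+ICT, with log2 fold changes from 0.36 for Cfb to 0.61 for C3 (SE 0.43), and C3ar1 was at -0.11 (SE 0.11, adjusted p = 0.597). For C4b all 10 tretinoin+ICT tumours exceeded the ICT median, and for C1ra, C1rb, C1s1, C2 and Serping1 9 did. Without ICT tumours 63 and 82, the highest ICT tumours for most of these genes, 8 of 9 passed and 2 were called, C3 at 1.31 (adjusted p = 0.0271) and Serping1 at 1.01 (adjusted p = 0.0188). Of all 14322 genes tested in that setting, 1372 rose past the adjusted p and 228 were called higher, so the shift was not particular to these genes. Taking the highest tumours out of 1 group lowers that group by construction, and leaving out either of them alone gave 0.

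The test of whether tretinoin acted differently with and without ICT used all 39 tumours. None of the 9 genes passed by edgeR or by DESeq2, where 0.307% of tested genes did in either direction, and 0 of 9 had an unadjusted p below 0.05 by edgeR, where 9.45% of all genes had. Values ran from -0.52 (SE 0.60) for C3 to -0.04 (SE 0.28) for C2 on the log2 scale. The standard errors are large enough that a sizeable difference in either direction could not be detected, and for 8 genes the sign turned without tumours 14, 33, 63 and 82. The comparisons above share control or treated tumours and are not independent of each other.

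**Figure D3:**
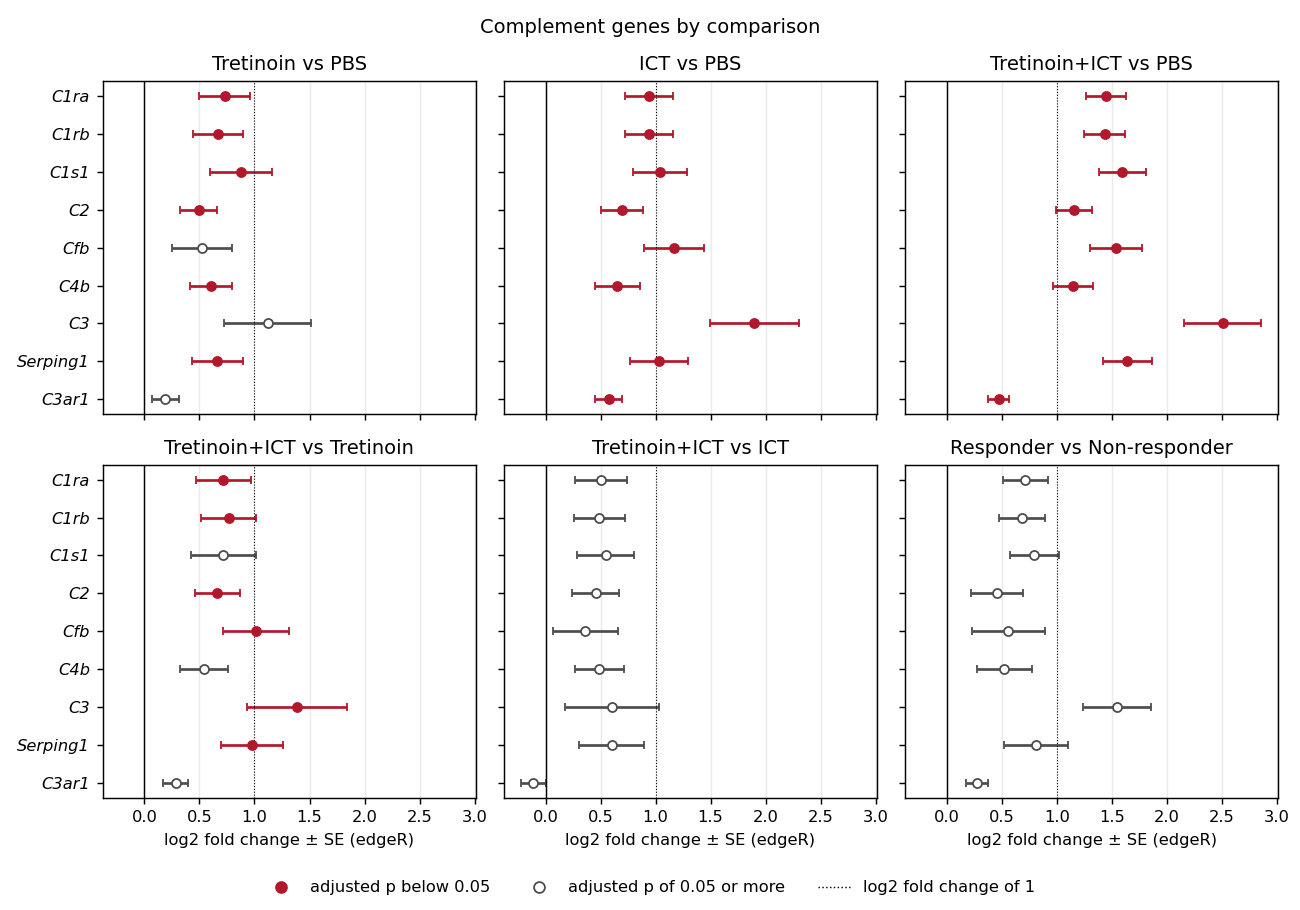
Log2 fold changes (x axes, with standard errors as bars) of the 9 complement genes in 6 comparisons, with filled points where the edgeR adjusted p was below 0.05 and a dotted line at a log2 fold change of 1. All 9 genes are filled in ICT and tretinoin+ICT against PBS, 6 in tretinoin against PBS and in tretinoin+ICT against tretinoin, and none in the 2 remaining panels.

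Within tretinoin+ICT, all 9 genes had higher means in tumours of responders than of non-responders. C3 separated the labels, with 698, 941, 1253 and 1332 CPM in the 4 non-responders and 1346 to 4440 CPM (median 3235) in the 6 responders. The lowest responder, tumour 43, and the highest non-responder, tumour 44, were nearly level. Here 1 of 9 genes had no overlap, where 1.98% of genes had none in this direction. The C3 log2 fold change was 1.55 (SE 0.31, adjusted p = 0.0841) by edgeR, 2.93-fold, which did not pass after adjustment over all genes. By DESeq2 it was 1.54 with an adjusted p of 3.89e-05.

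C1ra measured 305, 364, 382 and 467 CPM in non-responders and 408 to 804 CPM (median 615) in responders, a log2 fold change of 0.71 (SE 0.20, adjusted p = 0.0943). For C1rb the 4 values were 141, 171, 175 and 225 CPM and the responders ranged from 187 to 365 CPM (median 286), a log2 fold change of 0.68 (SE 0.21, adjusted p = 0.103). C1s1 stood at 549, 671, 841 and 910.4 CPM in non-responders, below 5 of 6 responders, which ranged from 835 to 1754 CPM (median 1327), a log2 fold change of 0.80 (SE 0.22, adjusted p = 0.0925). That count of 5 rests on a near tie, with non-responder tumour 23 at 910.414 and responder tumour 43 at 910.451 CPM. For these 3 proteases the groups overlapped in a few tumours, and all 6 responders exceeded the non-responder median. Serping1 was similar, with 178, 213, 224 and 382 CPM against 233 to 633 CPM (median 414), a log2 fold change of 0.81 (SE 0.29, adjusted p = 0.142).

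The remaining genes overlapped more, or changed less. C2 measured 17.8, 24.4, 29.3 and 35 CPM in non-responders and 23.3 to 46.1 CPM (median 39.5) in responders, a log2 fold change of 0.46 (SE 0.24, adjusted p = 0.275). Cfb measured 11.98, 19.9, 19.9 and 33.8 CPM against 18.1 to 50.4 CPM (median 30.9), a log2 fold change of 0.56 (SE 0.33, adjusted p = 0.339), and 2 of 6 responders exceeded every non-responder. C4b had 293, 294, 326 and 480.5 CPM against 277 to 648 CPM (median 556), a log2 fold change of 0.52 (SE 0.25, adjusted p = 0.241), and its lowest responder was below every non-responder. C3ar1 had 207, 240.2, 250.2 and 272 CPM against 260.0 to 345 CPM (median 284), a log2 fold change of 0.28 (SE 0.10, adjusted p = 0.126).

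By edgeR 0 of 9 genes passed between responders and non-responders, where 0% of all tested genes passed and 0% were called, so no gene of any kind passed in this comparison. At an unadjusted p below 0.05 edgeR gave 6 of 9, and 3302 of 14604 genes in all (22.6%). DESeq2 passed 5 of 9 (C1ra, C1rb, C1s1, C3 and Serping1) and called C3 alone, where 6.02% of all genes passed and 0.992% were called higher in responders. Leaving out responder tumour 43 brought 5 of 9 past the threshold by edgeR and 1 call, C3 at 1.68 (adjusted p = 0.00441), along with 971 higher (6.68%) and 834 lower genes overall. Tumour 43 had the lowest value of the responders for 8 of 9 genes, all except C1s1. Leaving it out raises the responder group for these 8 genes by construction. Tumours of both labels came from both number series, and with series as a block 8 of 9 had an unadjusted p below 0.05, as 21.2% of all genes had, and 0 passed.

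The 9 genes rose and fell together from tumour to tumour within treatments. After subtraction of group means, log2 CPM of C1ra correlated over 39 tumours at r = 0.996 with C1rb and 0.99 with C1s1, and C2, Cfb and Serping1 joined them at 0.92 or more. C3 was closest to C4b (0.90) and farthest from C2 (0.74). C3ar1 ranged from 0.71 with C4b to 0.89 with C1s1. High values were not particular to the 9 genes. With 10 listed interferon-gamma targets the median r ran from 0.66 for C3 to 0.93 for C1rb. For C1ra it was 0.92, against 0.83 with C3. With 5 listed fibroblast genes the median r was -0.54 for C1ra and -0.39 for C3. The genes were read in the same 39 libraries, over the same treatments and the few high tumours named above. C1ra and C1rb also share part of their sequence.

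**Figure D4:**
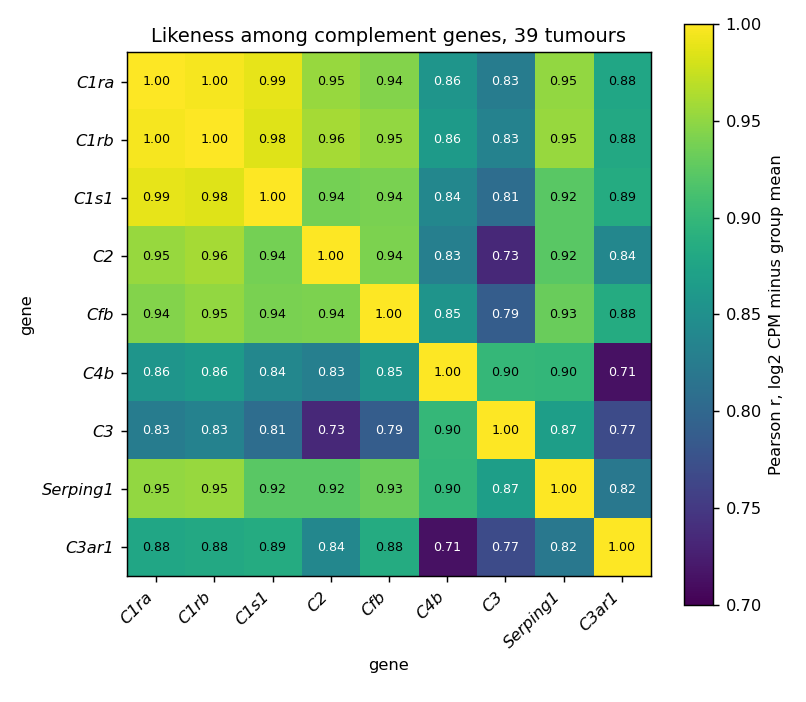
Pearson correlation of log2 CPM between complement genes over 39 tumours after subtraction of treatment means (colour and printed value). C1ra, C1rb, C1s1, C2, Cfb and Serping1 form a block at 0.92 and above, while C3 with C4b stands at 0.90.

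Genes outside the set with the most similar pattern, out of 12115 compared by the same measure, fell into a few recurring names. For C1ra they were C1s2 (0.98), Samhd1 (0.98), Trafd1 (0.98), for C1rb Trafd1 (0.98), Samhd1 (0.98), Fgl2 (0.98) and for C1s1 C1s2 (0.99), Trafd1 (0.98), Samhd1 (0.98). C2 was closest to H2-T23 (0.97), Ly6a (0.97), Fgl2 (0.97) and Cfb to Fgl2 (0.96), Trafd1 (0.96), Sdc3 (0.96). Serping1 was closest to Dram1 (0.96), Nod1 (0.96), Tnfaip2 (0.95), C4b to C4a (0.98), C6 (0.92), Pfkfb3 (0.92) and C3ar1 to Clec7a (0.93), Ptpro (0.93), B2m (0.93). C3 had other neighbours, Hsd11b1 (0.96), Sema4a (0.95), Arrdc4 (0.95). C1s2 and C4a are paralogues of C1s1 and C4b and share some sequence with them.

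Among 35 other complement genes found in the table (of 44 listed), 28 to 30 had enough counts to be tested. Against PBS, tretinoin raised 13 of 29 and lowered 0 (of all genes 11.5% rose), ICT raised 12 of 28 and lowered 1 (14.1%), and tretinoin+ICT raised 17 of 29 and lowered 1 (25.7%). Tretinoin+ICT raised 8 of 29 and lowered 3 against tretinoin (12.3%), raised 4 of 28 against ICT (1.57%), and no gene passed between responders and non-responders or for the interaction. These percentages are shares of all genes that rose. In tretinoin+ICT against tretinoin 1297 of all 14393 genes fell. Against PBS 1284 of 14340 fell with tretinoin, 1012 of 14155 with ICT and 3501 of 14265 with tretinoin+ICT. Median log2 fold changes were 0.26, 0.36 and 0.67 for the treatments against PBS in that order.

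Among recognition molecules, C1qa, C1qb and C1qc, the chains of C1q (the first pair named after their values were seen), rose with tretinoin (log2 fold changes 0.45, 0.49 and 0.56), with ICT (0.58, 0.63 and 0.63) and with both (0.83, 0.87 and 0.91). Fcna, the ficolin that recognises sugars in the lectin branch, rose with tretinoin alone (0.96, SE 0.17, adjusted p = 0.000485) and when tretinoin was added to ICT (1.27, SE 0.17, adjusted p = 0.000115), and was at -0.04 (SE 0.14, adjusted p = 0.849) with ICT alone. C1s2, the paralogue of C1s1, rose by 1.003, 1.08 and 1.61 with tretinoin, ICT and both. Of the membrane attack components, C6 rose with the combination (1.54, SE 0.29, adjusted p = 0.000239), and the other terminal genes found did not pass.

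The receptors for C5a, another complement fragment, were read beside C3ar1. C5ar1 had a median of 30.3 CPM with PBS, 70.03 with tretinoin, 45.4 with ICT and 70.01 with both. It rose 2.4-fold with tretinoin, 1.26 (SE 0.10, adjusted p = 3.74e-08) on the log2 scale, and rose when tretinoin was added to ICT (0.66, SE 0.11, adjusted p = 0.000921). C5ar2 moved likewise, by 1.41 (SE 0.19, adjusted p = 2.52e-05) and 0.83 (SE 0.14, adjusted p = 0.00112). With ICT against PBS both passed as well, C5ar1 at 0.55 (SE 0.10, adjusted p = 0.00171) and C5ar2 at 0.59 (SE 0.17, adjusted p = 0.0176). When ICT was added to tretinoin, C5ar1 was at -0.04 (SE 0.11, adjusted p = 0.791) and C5ar2 at 0.03 (SE 0.16, adjusted p = 0.903). Itgax and Itgb2, chains of the complement receptor that binds the C3 fragment iC3b, rose with ICT (1.18, SE 0.25, adjusted p = 0.00475, and 0.99, SE 0.23, adjusted p = 0.00695, respectively).

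Cfp, properdin, which stabilises the alternative convertase, rose when ICT was added to tretinoin (0.57, SE 0.12, adjusted p = 0.00454). Cd55 and Cd55b, which encode decay accelerating factors, rose in the same comparison (0.76, SE 0.20, adjusted p = 0.0141, and 1.02, SE 0.25, adjusted p = 0.0104, respectively). The 3 genes that fell there, named after their values were seen, were Cd46, a cofactor for C3b cleavage (-0.44, SE 0.09, adjusted p = 0.00447; against PBS 0.28, adjusted p = 0.0272, with tretinoin and -0.15, adjusted p = 0.171, with both), Masp2, a lectin branch protease (-0.42, SE 0.14, adjusted p = 0.0347), and Cd93 (-0.44, SE 0.13, adjusted p = 0.0194). Clu, clusterin, an inhibitor of the terminal complex, rose when tretinoin was added to ICT (0.46, SE 0.11, adjusted p = 0.0298).

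**Figure D5:**
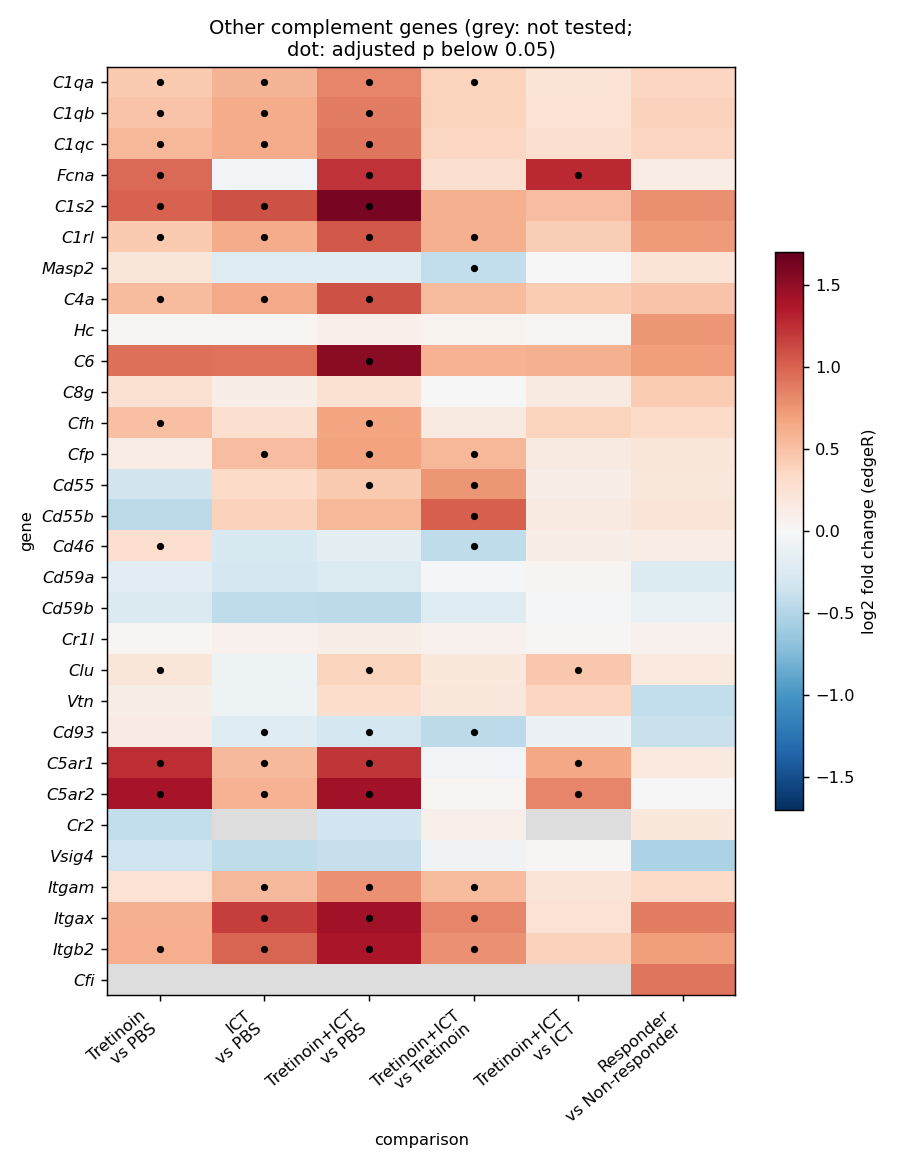
Log2 fold changes (colour) of the other complement genes (rows) that were tested in at least 1 of 6 comparisons (columns), with a dot where the edgeR adjusted p was below 0.05 and grey where a gene was not tested. C5ar1 and C5ar2 carry dots in all 3 columns against PBS and where tretinoin was added to ICT, Fcna in those columns except ICT against PBS, and Itgam and Itgax in the 2 columns of ICT-treated against PBS tumours and where ICT was added to tretinoin.

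Known inducible programmes were read in the same comparisons, in which 11.5% (tretinoin), 14.1% (ICT) and 25.7% (tretinoin+ICT) of all tested genes rose against PBS. Of 10 interferon-gamma targets, tretinoin raised 4, ICT 10 and tretinoin+ICT 10 against PBS, and adding tretinoin to ICT, where 1.57% of all genes rose, raised 0, with 10 of 10 above 0 by log2 fold change. Irf8, a transcription factor of myeloid cells that interferon-gamma induces, rose by 0.90 (SE 0.20, adjusted p = 0.0047), 0.96 (SE 0.24, adjusted p = 0.00915) and 1.84 (SE 0.19, adjusted p = 8.41e-07) against PBS in that order. The acute phase and NF-kB list had 1, 5 and 8 of 9 genes higher in these comparisons. Retinoid targets rose in 4 of 4 genes with tretinoin, led by Cyp26b1, which degrades retinoic acid (5.19, SE 0.13, adjusted p = 1.99e-16), in 3 of 4 with tretinoin+ICT and in 2 of 4 with ICT. With ICT 1 of the 4 fell, as did 1012 of all 14155 genes tested. The part of these programmes in the complement values was not tested.

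Markers of other cell types were also read, against the same shares of all genes that rose (11.5%, 14.1% and 25.7%). Of all genes tested against PBS, 1284 of 14340 fell with tretinoin, 1012 of 14155 with ICT and 3501 of 14265 with both. Summed over 6 macrophage genes, levels ran from 691 to 971 CPM in PBS, 693 to 1210 in tretinoin, 893 to 1516 in ICT and 977 to 1542 in tretinoin+ICT tumours, and of 5 tested genes 2, 5 and 5 rose with tretinoin, ICT and both against PBS. Of 4 monocyte genes 2, 4 and 4 rose, and of 3 tested neutrophil genes 0, 3 and 3. No T cell gene of 6 passed in any comparison. Fibroblast genes summed to 16443 to 26142 CPM in PBS, 13346 to 25225 in tretinoin, 11840 to 26013 in ICT and 12656 to 23902 in tretinoin+ICT tumours, and against PBS 0 of 5 rose while 0, 1 and 2 fell in that order. The lowest fibroblast sums of the PBS, tretinoin and ICT groups were those of tumours 14, 33 and 63. Of 5 endothelial genes 2, 0 and 2 rose and 0, 1 and 1 fell, and no adipocyte or skeletal muscle gene of 5 each passed. The 5 hepatocyte genes summed to at most 8.04 CPM in any tumour, so the defining genes of the main source of plasma complement were near 0. Of 6 mesothelial genes listed for the tumour's own lineage, Msln and Krt8 were not found. The other 4 summed to at most 6.27 CPM, and Upk3b was below 0.1 CPM in all tumours. The paper describes AB1-HA tumours as sarcomatoid. Which of the mesothelial or fibroblast genes the tumour cells themselves express was not tested. Wt1, the only mesothelial gene with enough counts to be tested against PBS, rose in each of these comparisons, by 1.12 (SE 0.31, adjusted p = 0.0157), 1.40 (SE 0.30, adjusted p = 0.00443) and 2.39 (SE 0.37, adjusted p = 2.71e-05). The part of cell composition in the complement values was not tested.

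Between number series the comparisons with PBS were compared in their 4 pairs. For ICT against PBS the C3 log2 fold change was 1.78 to 2.03 and for tretinoin+ICT against PBS 2.15 to 2.84. For tretinoin it ran from 0.051 to 1.699, and for tretinoin+ICT against tretinoin from 0.67 to 2.55. C3 was at -1.44 on the log2 scale in tretinoin series 7 against series 3 (adjusted p = 0.66, edgeR, 4 and 5 tumours). The other genes kept their sign in all 4 pairs of each comparison except C3ar1, which ran from -0.03 to 0.37 for tretinoin against PBS.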

How the data were processed

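RNA from 39 AB1-HA tumours was sequenced with Illumina NovaSeq. The authors aligned reads with HISAT2 2.0.4 after bcl2fastq 2.20.0.422 (versions from the submitters' processing notes) to a genome called mm11 in the methods, used SummariseOverlaps to count reads per gene, and deposited raw counts without normalization. How strand and reads with several alignments were treated is not given in the sources used here. Of the gene identifiers, 36719 (92.5%) matched GENCODE M21, from which coordinates on GRCm38 were taken.

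Counts were analysed with R 4.3.3, edgeR 4.0.16 and DESeq2 1.42.0, and with Python 3.11.15 and pandas 2.3.3. For each comparison of 2 groups the tumours of these groups were normalised by TMM, filtered with filterByExpr and tested by edgeR's robust quasi-likelihood test, and p values were adjusted by Benjamini-Hochberg over all genes tested. A gene passed at an adjusted p below 0.05 and was called if its absolute log2 fold change was also at least 1. Adjusted p values are from edgeR unless DESeq2 is named. The interaction was fitted on all 39 tumours. CPM use TMM factors over all tumours, and standard errors were obtained from the log2 fold change and the F statistic (change over root F). The edgeR and DESeq2 steps were tested on simulated data. Between 14033046 and 37951183 counts per tumour limit counting error to little beside the spread between tumours, each of which is 1 mouse by the labels.

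The 9 genes and all lists were chosen with earlier results of these data known, as were tumours 14, 33, 63 and 82, which were left out in an alternative. Of other complement genes, those past the adjusted p with the 6 largest absolute log2 fold changes per comparison were named, of programme lists at most 3 with the smallest adjusted p, and of similar genes the 3 with the highest correlation. The lists covered retinoid, interferon-gamma, acute phase and NF-kB genes and macrophage, monocyte, neutrophil, T cell, fibroblast, endothelial, hepatocyte, adipocyte, skeletal muscle and mesothelial markers. Alternatives were DESeq2, its size factors in edgeR, no filter on low counts, at least 10 counts in every tumour, no fold change minimum, all tumours in 1 fit, number series as a block, summed counts of near-identical pairs, and leaving out tumours. Leaving out each tumour in turn in the treatment comparisons was added after seeing the data.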

Additional observations from a re-analysis of the deposited data

Results flagged for a closer look

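PBS tumour 14 stood far above the other 9 PBS tumours in 4 of the 9 genes by Dixon's criterion, which compares the gap to the nearest tumour with the range of the group. C1ra was at 333 CPM in this tumour, and the next highest PBS tumour was at 201.2. C1rb was at 156 CPM in this tumour, and the next highest PBS tumour was at 99.8. C1s1 was at 685 CPM in this tumour, and the next highest PBS tumour was at 369.7. C3ar1 was at 298 CPM in this tumour, and the next highest PBS tumour was at 202. Chance flags about 1 in 20 groups, and 4 of 54 groups of tumours and genes were flagged, all of them the same tumour and genes that vary together. Tumour 14 also had the highest summed interferon-gamma target level of the PBS tumours, 3556 CPM against a group median of 1423, and the lowest summed fibroblast level, 16443 against 22536 CPM. Their part in the complement values was not tested.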

How the results depend on the processing

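Of 1350 alternative values, 1184 kept their direction and their side of the threshold, 125 kept the direction and were no longer past the threshold, 33 came past it, and 8 changed sign. The changes of sign were all in the interaction without tumours 14, 33, 63 and 82, with log2 values of 0.10 for C1ra, 0.14 for C1rb, 0.056 for C1s1, 0.19 for C2, 0.49 for C3, 0.24 for C4b, 0.32 for Cfb, 0.40 for Serping1 and none of the 9 genes past the threshold in either fit. The genes called of 9 (adjusted p and log2 fold change of 1) numbered 0 for tretinoin against PBS, and 1 with DESeq2, 1 with at least 10 counts in every tumour and 6 without a fold change minimum. They numbered 4 for ICT against PBS, and 9 without the minimum and 1 without tumours 14, 63 and 82. Tretinoin+ICT against tretinoin gave 2, and 6 without the minimum and 0 without a filter on low counts, when more genes were tested. Tretinoin+ICT against ICT gave 0, and 2 without tumours 63 and 82, and responders against non-responders gave 0, and 1 with DESeq2. Leaving out 1 tumour at a time, the counts ran from 0 to 2 for tretinoin against PBS, 1 to 6 for ICT against PBS, 0 to 3 for tretinoin+ICT against tretinoin and 0 to 1 for responders against non-responders, and were 8 throughout for tretinoin+ICT against PBS and 0 for tretinoin+ICT against ICT. Tretinoin against PBS gave 2 calls without PBS tumour 14 and 1 without tretinoin tumour 31, 72, 74 or 75. Among all genes tested, responders against non-responders gave 0 past the adjusted p by edgeR (3302 at an unadjusted p below 0.05), and 861 higher and 506 lower by DESeq2. The cause of these differences was not tested. No paired analysis was possible because the labels give tumours no replicate number shared between treatments.

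Calls near a log2 fold change of 1 or an adjusted p of 0.05 turned on single tumours, and 6 against 4 tumours leave wide errors for response. Counting error is small at these depths for all 9 genes, whose lowest group medians were those of Cfb and C2. Shared sequence or overlap with another gene limits C1ra, C1rb, C1s1, C2, Cfb and C4b, as strand and multiple alignment settings are not known here.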

Other observations

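Summed over the 9 genes, complement RNA ran from 1043 to 2742 CPM in PBS, 1322 to 6268 in tretinoin, 1595 to 8956 in ICT and 2711 to 9018 in tretinoin+ICT tumours. Within the last group the sum was 2711 to 4058 CPM in non-responders and 3663 to 9018 in responders. The 35 other complement genes summed to 3250 to 4062 CPM in non-responders and 3823 to 5475 in responders. Interferon-gamma targets summed to 3080 to 5964 and 4783 to 9032 CPM in these groups, and responder tumour 43 was the lowest responder in all 3 sums. T cell genes summed to 40.5 to 60.2 and 47.1 to 101 CPM.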
